A study of Rattus norvegicus with 60 samples.

Results

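Tac1, Tesc, Akr1c3, Slc51a, Fam180a and Sirpb3 are 6 of the 21792 gene lines of a rat array, and they were picked because their levels were lower in silica rats than in air rats at 1 or more times after exposure. Their difference between silica and air rats is therefore a description. Where limma's calls on it are counted, they stand beside the share of all genes called and nothing is read from them. The label that had been put on the set, steadily lowered by silica, describes the values of Tac1 and Tesc, which is no test of it. Akr1c3 and Sirpb3 averaged lower at every time, but Akr1c3 overlapped widely at 1 week and Sirpb3 at 16 weeks. The label describes Slc51a and Fam180a less well, whose largest mean gaps were at 4 weeks, though no change of the gap among times was called. Fam180a averaged slightly higher in silica rats at 8 and 16 weeks.

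The lungs came from male CDF Fisher 344 rats aged about 3 months, and expression was measured on 60 Illumina bead arrays, 1 for each rat. The silica groups were 40 rats that had inhaled crystalline silica at 15 mg/m³ on 5 days, for 6 hours on each, with 8 rats killed at each of weeks 1, 2, 4, 8 and 16 counted from the last exposure. The air groups were 20 rats that had breathed filtered air over the same days, with 4 killed at each of those times. The labels number the rats separately, so each array is a separate animal, and they name no genetic change or further treatment in either group.

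Median array signals ran between 60.2 and 97.8 and the number of genes detected per array between 11225 and 12594. Values below are log2 normalized intensities, and "detected" means a detection p-value under 0.05. As a check of the tissue, the mean of 10 markers of alveolar type II cells, the surfactant-making cells of lung, lay between 12.6 and 12.9 in silica rats and between 12.4 and 12.7 in air rats. Arrays have no sequencing depth, and the number of arrays limits the precision. Each gene value rested on a median of 36 to 50 beads per array, with a median standard error between beads of 3.05% to 4.10% of the signal.

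Tac1 encodes the precursor of substance P and neurokinin A, tachykinin peptides that sensory nerve endings release in airways and that act through the receptors Tacr1 and Tacr2 until peptidases such as neprilysin, encoded by Mme, cleave them. Tesc encodes tescalcin, a calcium-binding protein related to the calcineurin homologous proteins Chp1 and Chp2, which bind sodium-proton exchangers. The Akr1c enzymes reduce steroids and prostaglandins, and the rat gene now named Akr1c3, listed on the array as Akr1c18, is best known in rats for inactivating progesterone. Slc51a is the alpha subunit of a transporter of bile acids and steroids that needs the beta subunit Slc51b. Sirpb3 belongs to the signal regulatory proteins, immunoglobulin-like receptors whose inhibitory member Sirpa binds Cd47, while activating members signal through Tyrobp. Fam180a is a little-studied gene with no role given here.

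The 250 bases before the start site that RefSeq's promoter table gives for Tac1 and for Tesc are shown because these were the genes whose silica and air rats separated most completely. The sequences are those of RefSeq on assembly GRCr8, and capitals mark matches, on either strand, to any of 6 motifs searched. Searched were the E-box with the letters CACGTG, the cyclic AMP response element with TGACGTCA and the AP-1 site with TGANTCA. The other motifs were the motif of nuclear factor Y, with the letters CCAAT, the motif for Sp1-like factors with GGGCGG, and the TATA motif with TATAAA. The capitals of different motifs do not overlap in these windows. The Tac1 window is chr4:36645333-36645582 on the plus strand, and the Tesc window is chr12:44216541-44216790 on the minus strand. The RefSeq span of each gene reaches into its window and covers all but 11 bases of that of Tac1 and 34 bases of that of Tesc, so most of the Tac1 window is not upstream of the annotated gene.
Tac1: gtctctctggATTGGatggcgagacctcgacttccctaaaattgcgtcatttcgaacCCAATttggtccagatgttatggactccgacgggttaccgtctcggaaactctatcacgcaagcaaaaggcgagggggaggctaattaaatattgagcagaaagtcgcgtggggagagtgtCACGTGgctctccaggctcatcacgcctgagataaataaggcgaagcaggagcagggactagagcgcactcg
Tesc: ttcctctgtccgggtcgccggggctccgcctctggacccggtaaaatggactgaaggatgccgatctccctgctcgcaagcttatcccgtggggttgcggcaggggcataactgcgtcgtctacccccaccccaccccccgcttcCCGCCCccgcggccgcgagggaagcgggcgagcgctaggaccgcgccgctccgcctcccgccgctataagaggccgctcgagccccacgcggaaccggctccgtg
The Tac1 window held 1 CACGTG, which stands in 5.59% of the 33469 promoters of the table, and 2 matches to CCAAT, which stands in 34.0% of them. The Tesc window held 1 GGGCGG, found in 30.5% of promoters. All 6 genes had a promoter in that table. CACGTG stood in no other of the 6 windows, while CCAAT and the Sp1-like motif were both also in that of Akr1c3. A match is a description of the letters only.

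Tac1, the tachykinin precursor, was lower in every silica rat than in every air rat of the same week, at all 5 times. At 1 week its lowest, median and highest levels were 5.28, 5.60 and 5.86 in silica rats, against 6.12, 6.50, 6.17 and 6.24 in the 4 air rats. At 2 weeks they were 5.17, 5.35 and 5.51 in silica rats, against 6.62, 5.89, 6.29 and 6.53 in air rats. At 4 weeks they were 5.24, 5.42 and 5.74 in silica rats, against 6.12, 6.34, 6.70 and 6.35 in air rats. So the gap was already open at 1 week, and the lowest air rat of any week, at 5.89, still lay above the highest silica rat of any week, at 5.87. At 8 weeks silica rats had 5.05, 5.40 and 5.74, against 6.61, 6.41, 6.50 and 6.71 in air rats. At 16 weeks silica rats had 5.27, 5.46 and 5.87, against 6.27, 6.59, 6.76 and 6.52 in air rats. Across the genes tested, complete separation in this direction at 1 week was seen for 1.08%, and at 2, 4, 8 and 16 weeks for 1.39%, 1.91%, 2.35% and 6.60%.

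The silica-minus-air difference of Tac1 on the log2 scale was -0.63, -0.99, -0.95, -1.16 and -1.06 at weeks 1, 2, 4, 8 and 16, each with a standard error of 0.12. Averaged over the 5 times it was -0.96 ± 0.05 (SE), which put silica rats at 51.5% of the air level. Tac1 was a dim gene, detected in 34 of 40 silica rats and in 20 of 20 air rats, and its raw signals ran from 55.4 to 95.04 (median 81.1) in silica rats and from 97.6 to 153 (median 122) in air rats. The mean difference was -0.67 with no background correction and -0.40 in the authors' processed values, whose processing is not given in the sources used here. In bulk lung tissue, fewer cells of a type and less RNA per cell cannot be told apart, here and for every gene below.

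**Figure D1:**
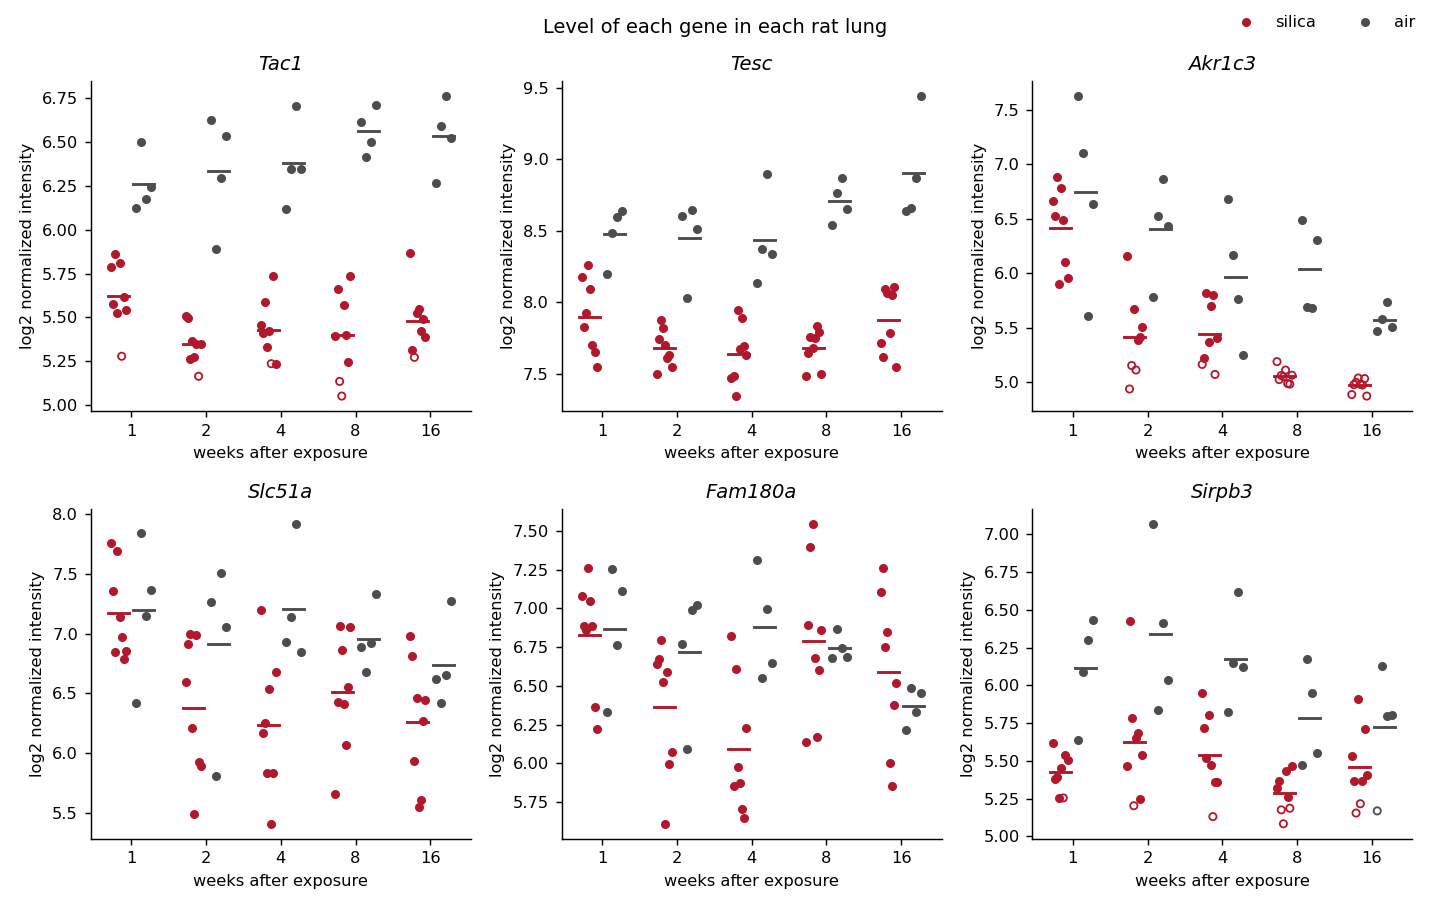
Log2 normalized intensity (vertical axis, a separate range in each panel) of the 6 genes in each rat, by weeks after exposure (horizontal axis). Each point is 1 rat, silica rats in red to the left and air rats in grey to the right, open points are rats in which the gene was not detected, and bars are group means. The Tac1 clouds never meet, those of Tesc meet only at 1 week, Akr1c3 sinks in both kinds of rat and is undetected in all 16 silica rats of 8 and 16 weeks, and Fam180a overlaps at every time.

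Tesc, the calcium-binding tescalcin, was lower in silica rats with full separation at 2, 4, 8 and 16 weeks. At 1 week its lowest, median and highest levels were 7.55, 7.88 and 8.26 in silica rats, against 8.19, 8.48, 8.59 and 8.64 in air rats. There 7 of 8 silica rats lay below the lowest air rat and 1 overlapped. At 4 weeks they were 7.35, 7.65 and 7.95 in silica rats, against 8.14, 8.37, 8.89 and 8.33 in air rats. At 16 weeks they were 7.55, 7.92 and 8.10 in silica rats, against 8.64, 8.66, 8.87 and 9.44 in air rats. The last of these air rats, replicate 4, was the highest value of Tesc on any array. The difference was -0.58, -0.77, -0.79, -1.03 and -1.03 at weeks 1, 2, 4, 8 and 16, each ± 0.13 (SE), and averaged -0.84 ± 0.06, or 55.9% of the air level. Unlike Tac1 it was detected on all 60 arrays, with raw signals of 171.4 to 379 (median 251) in silica rats and 324 to 611 (median 417) in air rats, and the authors' processed values gave -0.66.

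Akr1c3, the progesterone-inactivating reductase, was lower in silica rats on a level that sank with time in both kinds of rat. It was detected in 8, 5, 6, 0 and 0 of 8 silica rats at weeks 1, 2, 4, 8 and 16, and in all 4 air rats at every time. At 1 week silica rats had a lowest, median and highest level of 5.90, 6.51 and 6.89, against 7.63, 7.11, 5.61 and 6.64 in air rats, and the groups overlapped widely. At 2 weeks silica rats had 4.94, 5.40 and 6.16, against 5.78, 6.53, 6.87 and 6.44 in air rats. At 8 weeks silica rats had 4.98, 5.06 and 5.19, against 6.49, 5.69, 5.68 and 6.30 in air rats, with no overlap. At 16 weeks silica rats had 4.87, 4.98 and 5.04, against 5.47, 5.58, 5.73 and 5.51 in air rats, again with no overlap. The difference was -0.33, -0.98, -0.52, -0.98 and -0.60 in order of time, each ± 0.22 (SE), with a mean of -0.68 ± 0.10, against -0.31 in the authors' processed values. Leaving out 1 rat put the 1 week value between -0.71 (without air replicate 3) and -0.04 (without air replicate 1), and the 4 week value between -0.76 (without air replicate 4) and -0.28 (without air replicate 1). Because no silica rat had a detected value at 8 and 16 weeks, only bounds hold there. On the group means of the main processing, Akr1c3 was at least 1.92-fold lower at 8 weeks and at least 1.40-fold lower at 16 weeks. For each silica array the higher of its lowest detected value and the gene's own was taken. These bounds cover neither the spread among the 4 air rats nor the choice of processing. Over the alternatives the log2 difference was as small as -0.41 at 8 weeks and -0.27 at 16 weeks.

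In air rats alone, the trend over time was tested as a slope per doubling of weeks in limma's fit over all 13918 genes. Akr1c3 fell in air rats by 0.27 per doubling (log2, SE 0.06), with a limma adjusted p of 0.00292, and it was the only one of the 6 genes called. Over all genes tested 2.06% had a called slope in air rats in either direction. Without the 16 week groups, and so with fewer rats and times, the slope was -0.26 and no longer called (limma adjusted p = 0.489). The limma F-test among the 5 times in air rats also called Akr1c3 (adjusted p = 0.0327, against 1.82% of all genes called). That call was lost when 1 of 7 air rats was left out, namely replicates 1, 2 or 4 at 1 week, replicate 2 at 2 weeks, or replicates 1, 2 or 4 at 16 weeks, with adjusted p up to 0.140. Tac1 had an air slope of 0.08 ± 0.03 and Tesc of 0.11 ± 0.03, neither called by limma (adjusted p = 0.225 and 0.0852). The slope of Tesc was called with the replicate number as a block (limma adjusted p = 0.0309), with the runs of the deposited column order as a block (0.0407) and without the 1 week groups (0.0440). The air slopes of Slc51a, Fam180a and Sirpb3 were -0.09 ± 0.08, -0.10 ± 0.06 and -0.13 ± 0.05 (SE), and none was called. Air values also entered the differences on which the genes were picked.

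The trend in silica rats used the same silica means that chose the genes and is given as values, with no test: limma's rule would call the slopes of 2 genes (28.0% of all genes) and the F-test among times of 3 (48.2% of all genes), and nothing is read from these counts. Slc51a had a slope of -0.17 ± 0.06 (SE) per doubling of weeks. That of Akr1c3, -0.32, rests on undetected values at 8 and 16 weeks and is not an exact value. The slopes in silica rats were -0.02 for Tac1, -0.0049 for Tesc, -0.0051 for Fam180a and -0.03 for Sirpb3. A slope near 0 is not a level course: the silica means of Fam180a were 6.83, 6.36, 6.09, 6.79 and 6.59 in order of time, a dip at 4 weeks. Those of Tac1 stayed between 5.35 and 5.62 and those of Tesc between 7.64 and 7.90.

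**Figure D2:**
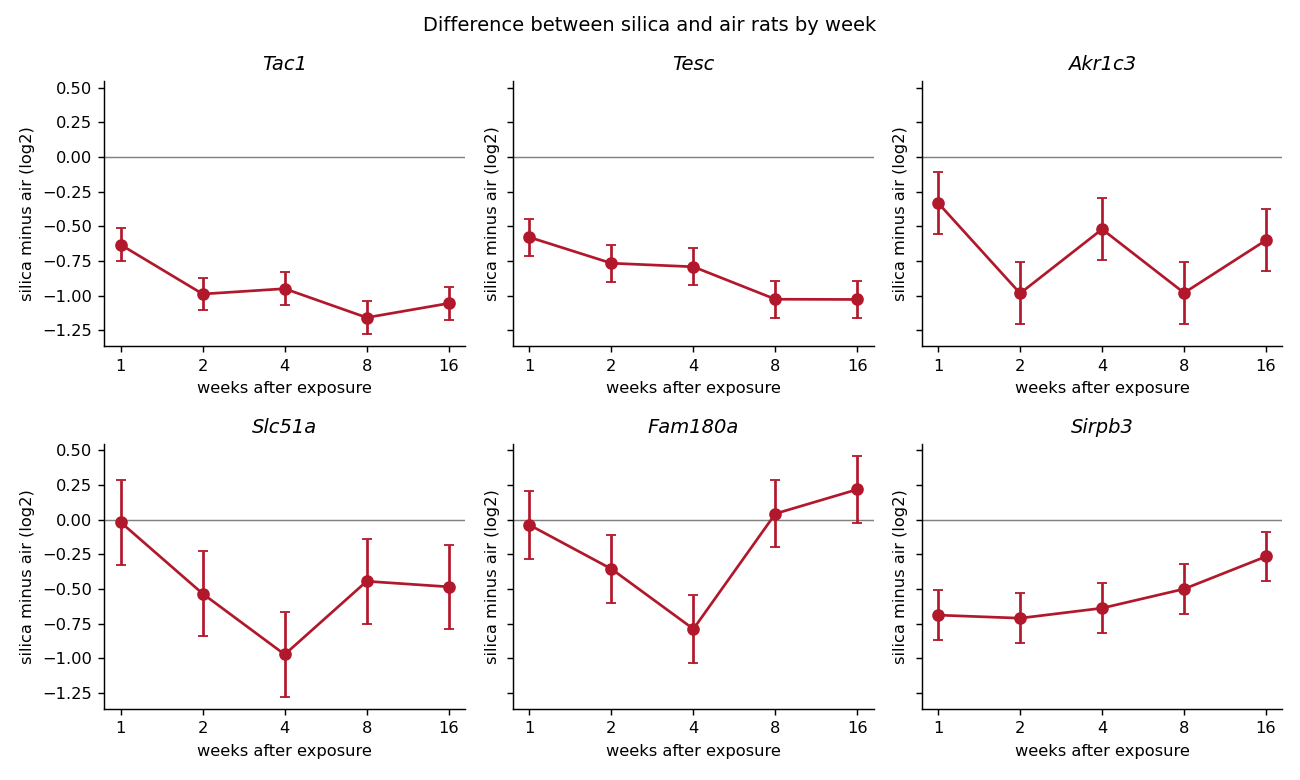
Silica minus air in log2 normalized intensity (vertical axis, the same range in all panels) of the 6 genes at weeks 1, 2, 4, 8 and 16 (horizontal axis). Points are differences of group means with bars of ± 1 SE from the fit of all 60 arrays. Tac1 and Tesc stay below -0.5 throughout, and Slc51a dips to -0.97 and Fam180a to -0.79 at 4 weeks. Sirpb3 stands at -0.69 at 1 week and at -0.27 at 16 weeks.

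Sirpb3, of the signal regulatory protein family, was lower in silica rats early on, and the mean gap was smaller at 8 and 16 weeks. A change of the difference among the 5 times was not called by limma's F-test (adjusted p = 0.761). At 1 week silica rats had a lowest, median and highest level of 5.25, 5.42 and 5.62, against 5.64, 6.09, 6.30 and 6.43 in air rats, with no overlap. At 2 weeks silica rats had 5.20, 5.60 and 6.42, against 7.07, 5.83, 6.41 and 6.03 in air rats, and 7 of 8 silica rats lay below the lowest air rat. At 8 weeks silica rats had 5.08, 5.29 and 5.465, against 5.472, 6.17, 5.95 and 5.55 in air rats, again with no overlap. At 16 weeks silica rats had 5.16, 5.39 and 5.91, against 5.17, 6.13, 5.80 and 5.81 in air rats, and only 1 of 8 silica rats lay below the lowest air rat. The difference was -0.69, -0.71, -0.64, -0.50 and -0.27 by time, each ± 0.18 (SE), with a mean of -0.56 ± 0.08. The 2 week value was -0.47 without air replicate 1, and the 16 week value lay between -0.45 (without air replicate 1) and -0.13 (without air replicate 2). Sirpb3 was dim, detected in 32 of 40 silica rats and 19 of 20 air rats, and its mean difference was -0.23 in the authors' processed values.

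Slc51a, the transporter subunit, varied more between rats of 1 group than any other of the 6 genes, with a within-group SD of 0.52 on the log2 scale, against 0.20 for Tac1. At 4 weeks silica rats had a lowest, median and highest level of 5.41, 6.21 and 7.20, against 6.93, 7.14, 7.92 and 6.85 in air rats. There 7 of 8 silica rats lay below the lowest air rat. At 1 week silica rats had 6.78, 7.06 and 7.76, against 6.42, 7.85, 7.15 and 7.36 in air rats, and no silica rat lay below the lowest air rat. The difference was -0.02, -0.53, -0.97, -0.44 and -0.48 by time, each ± 0.30 (SE). The 2 week value lay between -0.90 (without air replicate 2) and -0.33 (without air replicate 3). Its mean over the 5 times was -0.49 ± 0.14, with the authors' processed values at -0.26, and the gene was detected on all 60 arrays.

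Fam180a also had its lowest mean difference at 4 weeks. A change of the difference among the 5 times was called by limma's F-test for neither gene (adjusted p = 0.698 for Slc51a and 0.307 for Fam180a). The lowest, median and highest levels of Fam180a at 4 weeks were 5.64, 5.92 and 6.82 in silica rats, against 7.31, 6.55, 7.00 and 6.65 in air rats. There 6 of 8 silica rats lay below the lowest air rat. At 16 weeks silica rats had 5.85, 6.64 and 7.26, against 6.22, 6.49, 6.33 and 6.46 in air rats, so that silica rats stood on both sides of the air rats. The difference was -0.04, -0.36, -0.79, 0.04 and 0.22 by time, each ± 0.24 (SE). The mean of -0.18 ± 0.11 had no fixed sign across scalings and settings, with a range of -0.29 to 0.08.

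By limma's adjusted p under 0.05, 3 of the 6 genes were called lower at 1 week (Tac1, Tesc and Sirpb3), where 1.19% of all genes were. At 2 weeks 4 were called (also Akr1c3; 4.79% of all genes), and at 4 weeks 5 (all but Akr1c3; 3.96%). At 8 weeks and at 16 weeks Tac1, Tesc and Akr1c3 were called, 3 genes, with 4.22% and 12.3% of all genes. In the mean over the times 5 of 6 were called, all but Fam180a, with 20.6% of all genes lower. Since the genes were picked on these differences, nothing is read from these counts. The 4 week count rested on few rats: it was 2 without air replicate 3 or 4, and 3 without silica replicate 2, 6 or 7.

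The labels and file headers name no batch. In the order of the deposited columns the arrays fell into 8 runs, of which 4 held 1 silica and 1 air rat of every week, giving 20 silica and air pairs. Tac1 and Tesc were lower in the silica rat in 20 of 20 pairs, Sirpb3 in 18, Akr1c3 in 17, Slc51a in 15 and Fam180a in 13. Every Tac1 silica rat lay below every air rat of its week, so the Tac1 count was fixed in advance. So was that of Tesc at 2, 4, 8 and 16 weeks. The pair counts reuse the difference on which the genes were picked, have no share over all genes beside them, and nothing is read from them. Within these runs the mean difference of Tac1 lay between -1.09 and -0.69 and that of Tesc between -0.97 and -0.65. That of Akr1c3 lay between -1.25 and -0.08, and that of Sirpb3 between -0.74 and -0.05.

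Deviations of each rat from its own group mean do not use the difference between silica and air, and they were set against each other over the 60 rats. P-values came from a two-sided permutation test with 100000 permutations within groups, and were adjusted over 15 pairs of genes. Of these pairs 4 were called. Slc51a and Fam180a varied together closely, with Pearson's r = 0.79 and Spearman's rho = 0.76, each with a permutation adjusted p of 0.00015, which is what the smallest p these permutations can give comes to after adjustment. Without the 2 rats farthest from the median of Slc51a r was 0.76, and it was 0.83 in silica rats and 0.67 in air rats. Tac1 and Sirpb3 had r = 0.44 and rho = 0.42 (permutation adjusted p = 0.00862 and 0.0173), and r = 0.41 without the 2 farthest rats. With the runs of the column order removed, their r was 0.29 and no longer called (permutation adjusted p = 0.122), while Tesc and Sirpb3 became called at r = 0.41 (permutation adjusted p = 0.0147).

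Akr1c3 and Sirpb3 ran opposite to each other, with r = -0.46 and rho = -0.41 (permutation adjusted p = 0.0111 and 0.0207), and r = -0.43 without the 2 farthest rats. Their r was -0.34 in silica rats, where Akr1c3 was often undetected, and -0.55 in air rats. Slc51a and Sirpb3 had r = 0.40 (permutation adjusted p = 0.0254), while their rho of 0.35 was not called (permutation adjusted p = 0.0514). That call was lost without air replicate 3 or silica replicate 1 or 6 at 4 weeks, or without air replicate 1 at 1 week, with r between 0.36 and 0.37. Removing the runs also ended it, at r = 0.31 (permutation adjusted p = 0.0879). Tac1 and Tesc, which shared the pattern across groups, had r = 0.17 between rats of the same group, which was not called (permutation adjusted p = 0.381, rho = 0.09).

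Some deviations also moved with measures of the array, with 2 of 18 relations called by the same permutation test, adjusted over the 18. Slc51a ran opposite to the log2 of an array's median signal (r = -0.47, rho = -0.50, permutation adjusted p = 0.00810 and 0.00270), with r = -0.50 without the 2 farthest rats. Sirpb3 rose with the mean number of beads (r = 0.39, permutation adjusted p = 0.0390), though its rho of 0.30 was not called (permutation adjusted p = 0.0820) and r was 0.30 without the 2 farthest rats. Fam180a had r = -0.36 with the number of genes detected (permutation adjusted p = 0.0583), with a rho of -0.41 (permutation adjusted p = 0.0306), and Tac1 had r = 0.30 with the number of beads (permutation adjusted p = 0.0583). The part of these measures in the relations between genes and with marker lists was not tested.

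The same deviations were set against the means of 12 lists of cell type markers, 72 relations in all, of which 19 were called. Slc51a followed the mean of 9 markers of mesothelium, the cell layer that covers the lung surface, with r = 0.92 and rho = 0.92, and Fam180a with r = 0.86 and rho = 0.84 (permutation adjusted p = 0.00018 for each, the smallest that these permutations allow). Without the 2 farthest rats r was 0.91 for Slc51a and 0.85 for Fam180a. In silica rats alone r was 0.91 for Slc51a and 0.89 for Fam180a, and in air rats 0.96 and 0.78. Both genes ran opposite to markers of club and secretory cells (r = -0.66 for Slc51a and -0.57 for Fam180a), of ciliated cells (r = -0.62 and -0.56) and of cardiac muscle (r = -0.53 and -0.56), and all of these were called. The r values with the neural list were 0.44 for Slc51a and 0.63 for Fam180a, and those with smooth muscle markers -0.45 and -0.55, also called. The neural list rested on 8 tested genes and was dim, with a mean of 5.26 to 5.72 in silica rats and 5.28 to 5.62 in air rats.

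The mesothelial list itself averaged lower in silica rats, most at 4 weeks. Its mean ran from 6.83 to 7.96 in silica rats and from 7.08 to 8.16 in air rats, and the silica-minus-air difference was -0.01, -0.12, -0.38, -0.14 and -0.26 in order of time. Of the 9 tested genes of the mesothelial list, 3 were called lower in the mean over times (Upk1b, Krt19 and Podxl) and 6 were not called. Those not called included Msln and Upk3b (limma adjusted p = 0.0851 and 0.166), and also Bnc1 and Calb2, at 0.02 and 0.003. At 4 weeks the surface markers Msln (-0.83), Upk3b (-1.15) and Upk1b (-0.81) differed most, and the other tested genes lay between -0.20 (Rspo1) and 0.02 (Bnc1). Among defining markers, Calb2 was detected in 6 of 40 silica rats and 4 of 20 air rats, and Wt1 in 15 of 40 silica rats and 8 of 20 air rats. With the mean of these markers as a covariate, an alternative chosen after seeing the data, the 4 week difference of Slc51a was -0.24 ± 0.13 (SE), in place of -0.97. That of Fam180a at 4 weeks was -0.24 ± 0.13, in place of -0.79, and its 16 week difference was 0.58 ± 0.13, in place of 0.22. The same covariate left Tac1 at -0.91 ± 0.05, Tesc at -0.81 ± 0.06, Akr1c3 at -0.69 ± 0.11 and Sirpb3 at -0.48 ± 0.08 in the mean over times. For the lists to which Slc51a and Fam180a ran opposite, differences of the means are given without a standard error. Silica minus air at 4 weeks was 0.88 for club and secretory markers, 1.66 for cardiac muscle, 0.11 for ciliated and -0.05 for smooth muscle markers. At 16 weeks the same lists stood at -0.43, -2.75, -0.41 and -0.28. Over all weeks the cardiac list mean ran from 5.18 to 9.73 in silica rats and from 5.22 to 9.22 in air rats. None of its 7 tested genes was called in the mean over times. The list used as covariate itself differed between silica and air rats. The part of mesothelium and of these other cell types in the differences of the 6 genes was not tested.

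**Figure D3:**
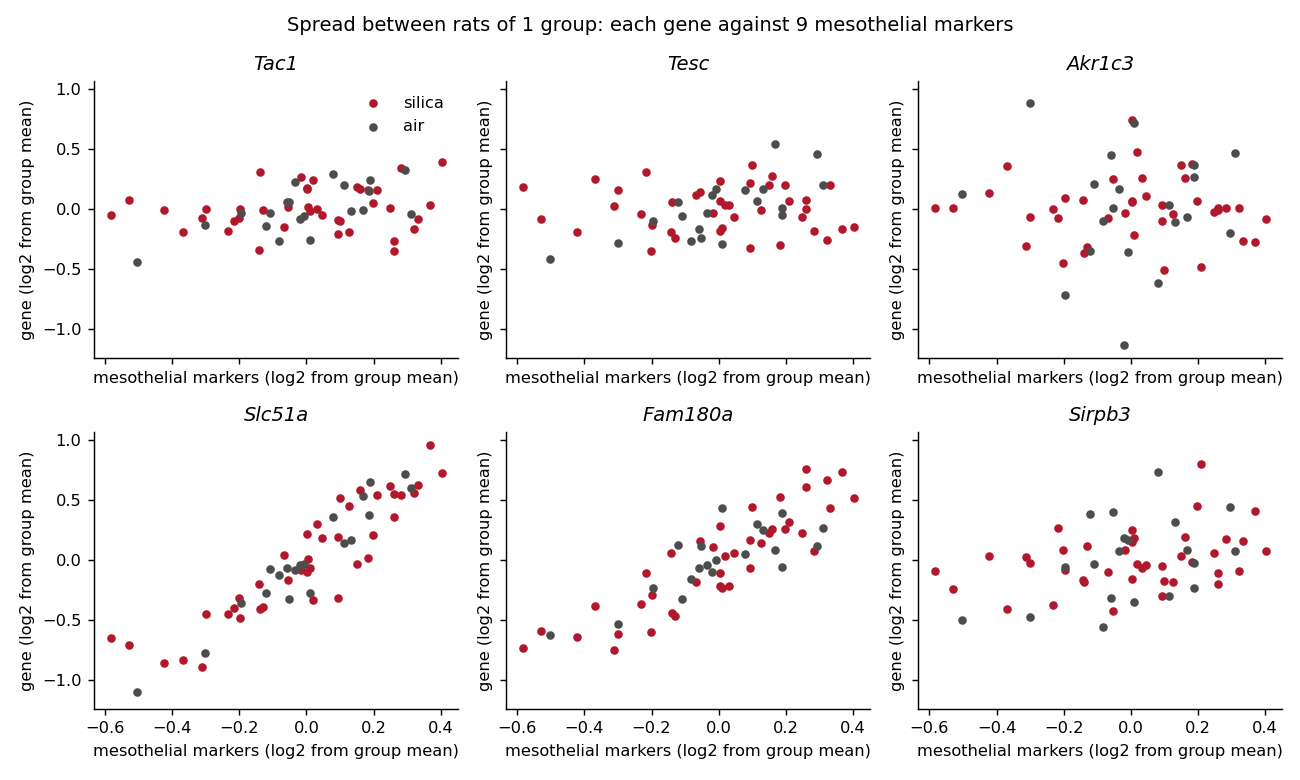
Each rat's deviation from its group mean in a gene (vertical axis, log2) against its deviation in the mean of 9 mesothelial markers (horizontal axis, log2), for the 6 genes, with silica rats in red and air rats in grey. Points of Slc51a and Fam180a lie along a rising line (r = 0.92 and 0.86), while those of Akr1c3 show no slope (r = -0.03).

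For the other 4 genes the closest marker lists were weaker relations. Tac1 ran opposite to club and secretory markers (r = -0.40, rho = -0.39, permutation adjusted p = 0.0196 and 0.0230), and r was -0.35 without the 2 farthest rats. The sign of that relation depended on the scaling, with r = 0.16 after median scaling. Tac1 also followed the macrophage list (r = 0.38, rho = 0.36, permutation adjusted p = 0.0196 and 0.0341), with r = 0.34 without the 2 farthest rats. Its r with that list was 0.54 in silica rats and 0.13 in air rats. Tac1 ran opposite to the ciliated list (r = -0.35, rho = -0.36, permutation adjusted p = 0.0314 and 0.0318), with r = -0.33 without the 2 farthest rats. With the neural and neuroendocrine list Tac1 did not pass (r = 0.18, permutation adjusted p = 0.366), of whose genes 8 were measurable and 6 were on the array but hardly detected, Chga, Nefl and Uchl1 in no rat. Akr1c3 followed the macrophage list (r = 0.43, rho = 0.41, permutation adjusted p = 0.00353 and 0.0160), and r was 0.38 without the 2 farthest rats. In air rats alone r was 0.67, and in silica rats 0.19. Akr1c3 was detected in only 19 of 40 silica rats, so many of its silica deviations rest on undetected values. It ran opposite to the endothelial list (r = -0.31, rho = -0.39, permutation adjusted p = 0.0210 and 0.0203; r = -0.34 without the 2 farthest rats). The macrophage list was higher in silica rats, by 0.29, 0.30, 0.26, 0.40 and 0.61 in order of time, and its part in the difference of Akr1c3 was not tested. Sirpb3 ran opposite to club and secretory markers (r = -0.41, rho = -0.40, permutation adjusted p = 0.0196 and 0.0218; r = -0.37 without the 2 farthest rats). With the mesothelial list Sirpb3 had r = 0.37 (permutation adjusted p = 0.0363; r = 0.36 without the 2 farthest rats), while the rho of 0.34 was not called (permutation adjusted p = 0.0530). Tesc had its largest r with alveolar type II markers, at -0.36, which was not called (permutation adjusted p = 0.0510) and whose sign also turned after median scaling, to 0.73. The part of these cell types in the differences of Tac1, Akr1c3, Sirpb3 and Tesc was not tested.

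**Figure D4:**
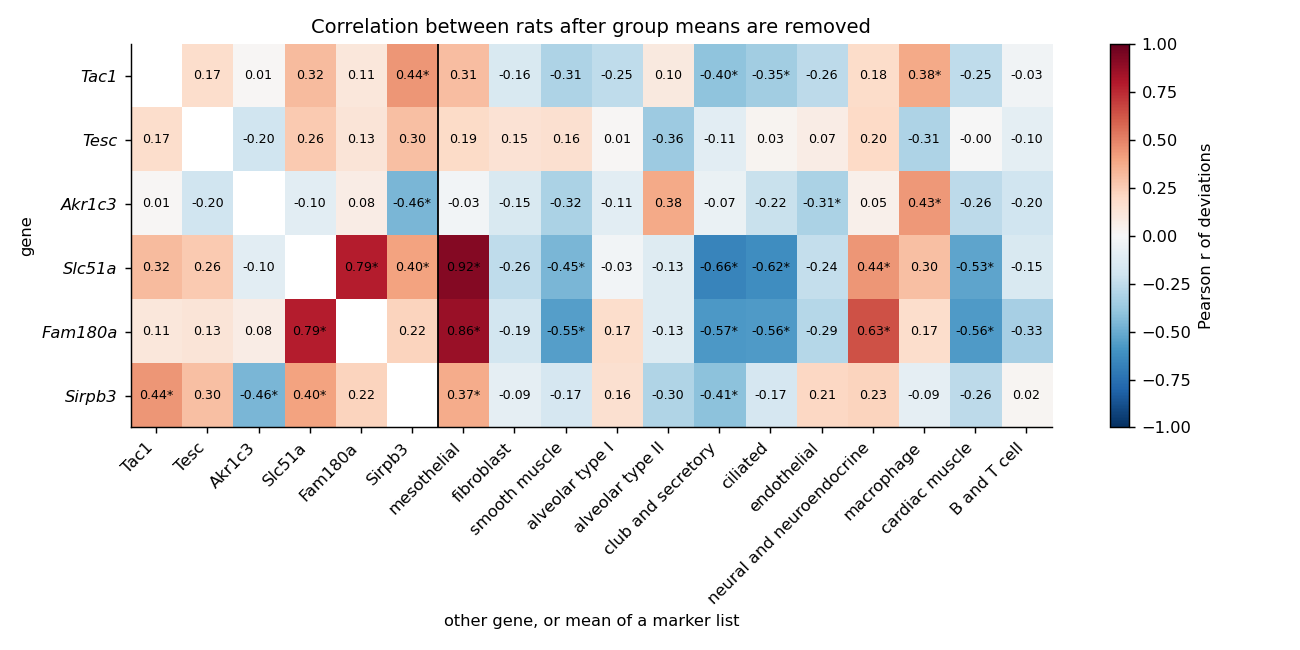
Pearson's r over 60 rats of deviations from the group mean (colour and number, blue below 0 and red above) between the 6 genes (rows) and the 6 genes and 12 marker lists (columns). Stars mark a permutation adjusted p under 0.05, and the strongest cells are Slc51a and Fam180a with each other (0.79) and with the mesothelial list (0.92 and 0.86).

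Other genes of each pathway were looked at in the mean difference over the 5 times, where 14.6% of all genes were called higher and 20.6% lower, with a median over all genes of -0.01. Many of these calls depended on the scaling: after median scaling 9 of 27 called partner genes kept their call, namely Npy, Pcsk1, Akr1c19, Tbxas1, Srd5a1, Slco1a5, Trem1, Trem2 and Sftpd, and 18 lost it. Of 20 measured genes around tachykinins and lung neuropeptides, 7 were called lower, 2 higher and 11 neither (1 lower and 1 higher after median scaling), with a list median of -0.02. Npy, a neuropeptide of sympathetic nerves, averaged 9.93 in silica rats and 10.29 in air rats, a difference of -0.36 ± 0.06 (SE; limma adjusted p = 2.96e-06). The receptor Vipr2 for vasoactive intestinal peptide (-0.34 ± 0.05) and Ramp1, a subunit of the calcitonin gene-related peptide receptor (-0.25 ± 0.04), were also lower, as was the peptidase Ace (-0.28 ± 0.05). Mme, which degrades substance P, was higher at 8.21 in silica rats and 8.02 in air rats (0.19 ± 0.03, limma adjusted p = 1.46e-06), as was the prohormone convertase Pcsk1 (0.46 ± 0.07). The substance P receptor Tacr1 did not pass (0.03 ± 0.05) and was detected in 19 of 40 silica rats and 7 of 20 air rats. Calca and Calcb, which encode peptides carried with substance P in sensory nerves, were detected in no rat.

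Of 36 measured genes of prostaglandin and ketosteroid metabolism other than Akr1c3, 11 were called lower, 6 higher and 19 neither (1 lower and 3 higher after median scaling), with a list median of -0.03. Its relatives Akr1c19 (-0.42 ± 0.04, limma adjusted p = 5.86e-11) and Akr1c14 (-0.24 ± 0.03) were lower in silica rats. Akr1c14, which reduces ketosteroids, had a difference that changed among the times by limma's F-test (adjusted p = 0.0146), at -0.22, -0.04, -0.07, -0.36 and -0.50 by week. Hpgd (-0.25 ± 0.04) and Ptgr1 (-0.19 ± 0.03), which inactivate prostaglandins, were lower, and thromboxane synthase Tbxas1 (0.31 ± 0.04) and the steroid reductase Srd5a1 (0.24 ± 0.04) were higher. Ptgs2, the inducible cyclooxygenase, did not pass (-0.04 ± 0.07). Probes of related Akr1c genes may share sequence, so signals within this family are uncertain.

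Of 19 measured genes around calcineurin-like calcium sensors and sodium-proton exchangers, 7 were called lower, 2 higher and 10 neither (none called after median scaling), with a list median of -0.02. Chp1, a relative of Tesc, was at 10.1 in silica rats and 10.3 in air rats (-0.14 ± 0.03, limma adjusted p = 0.000172), and Chp2 differed by -0.13 ± 0.04. The exchanger Slc9a5 was higher (0.15 ± 0.04). The transcription factor Nfatc4 (-0.26 ± 0.03) and the calcineurin regulator Rcan1 (-0.11 ± 0.03) were lower, and the catalytic subunit Ppp3cb (0.13 ± 0.05) was higher, a call lost without air replicate 4 at 2 or at 16 weeks. All of these were smaller in size than the -0.84 of Tesc.

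Of 15 measured genes of bile acid and organic anion transport, 2 were called higher, 1 lower and 12 neither (1 higher and none lower after median scaling), with a list median of -0.01. Slc51b, the subunit that Slc51a needs for transport, was on the array and was detected in no rat. The carriers Slco1a5 (0.36 ± 0.04) and Abcc5 (0.08 ± 0.03) were higher, with the call of Abcc5 lost in 14 of 60 omissions of a single rat, and the prostaglandin carrier Slco2a1 (-0.16 ± 0.04) was lower.

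Of 12 measured genes around the signal regulatory proteins other than Sirpb3, 9 were called higher and 3 were not called (3 higher after median scaling), with a list median of 0.13. In the same rats 7 of 10 macrophage markers were called higher and 1 lower, and 8 of 10 type II markers were called higher. Sftpd and Sftpa1 stand both in the type II list and in this one. The part of these cell types in the differences of this list was not tested. Sirpa averaged 12.7 in silica rats and 12.5 in air rats (0.16 ± 0.02, limma adjusted p = 5.36e-07), and the adaptor Tyrobp 10.2 and 9.94 (0.28 ± 0.03). Trem1 (0.52 ± 0.05) and Trem2 (0.43 ± 0.06), receptors that signal through Tyrobp, and the surfactant proteins Sftpd (0.55 ± 0.06) and Sftpa1 (0.14 ± 0.03), collectins that bind Sirpa, were also higher. Cd47 did not pass (0.06 ± 0.03).

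**Figure D5:**
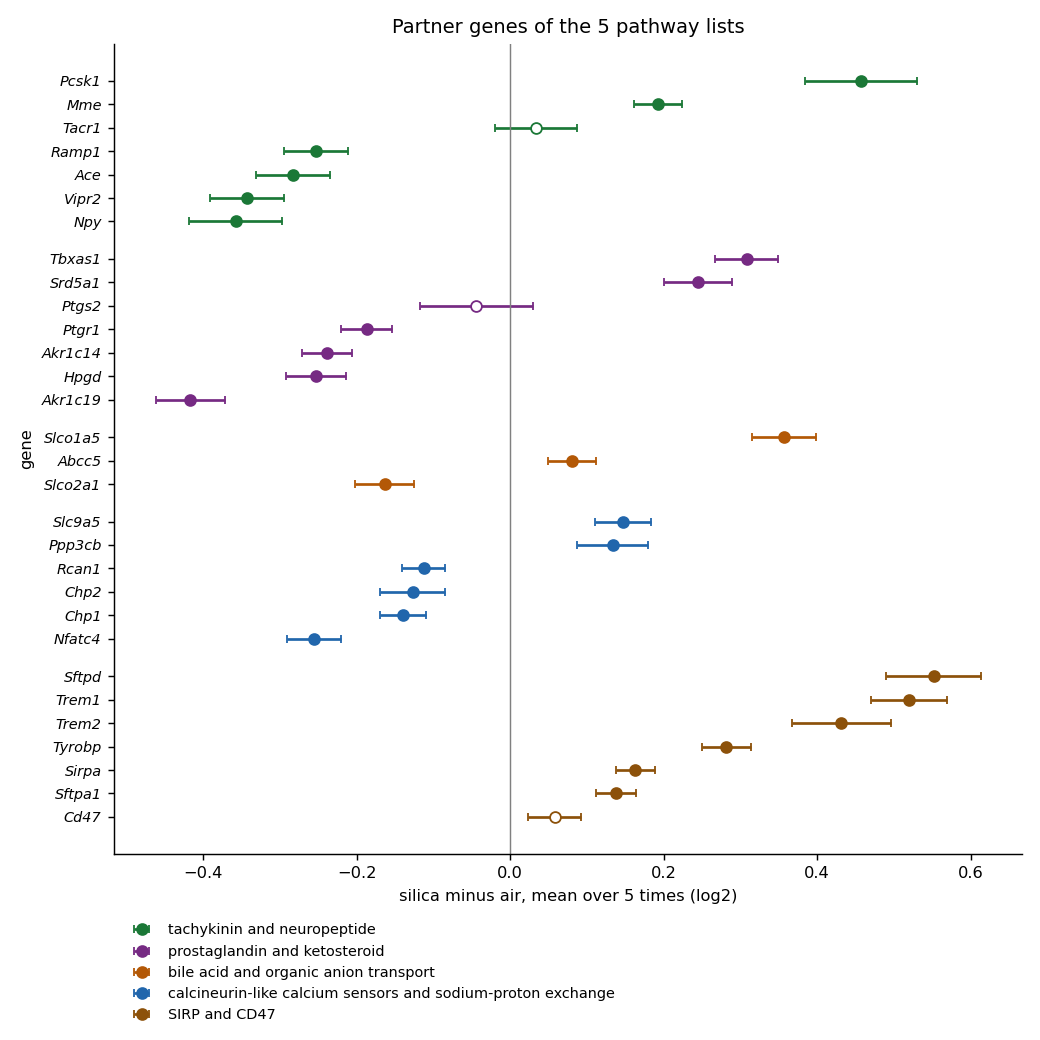
Silica minus air in log2 normalized intensity averaged over the 5 times (horizontal axis) for 30 partner genes (vertical axis), coloured by pathway list, with bars of ± 1 SE. Filled points passed limma's adjusted p of 0.05 and open points did not, and no gene shown is as far below 0 as Tac1 at -0.96.

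The genes whose 10 group means ran most like those of Tac1 were Dlk1, a transmembrane relative of the Notch ligands (r = 0.98), Misp3 (0.98), the sterol hydroxylase Cyp27a1 (0.97), Kifbp (0.97) and Use1 (0.96). Dlk1 also fell further than Tac1, by a mean of -1.94 ± 0.10 (SE), whereas Cyp27a1 differed by -0.24 ± 0.03 and Kifbp by -0.10 ± 0.02. Misp3 (0.98) and Cyp27a1 (0.98) were also the genes most like Tesc. Pla1a (0.99) and Rcan1 (0.98) were most like Akr1c3, B4galt2 (0.98) and Nrgn (0.97) most like Slc51a, Ubash3b (0.92) among those most like Fam180a, and Dclk2 (0.96) and Cars1 (0.96) most like Sirpb3. After median scaling r with Tac1 was 0.98 for Dlk1, 0.75 for Misp3, 0.64 for Cyp27a1, 0.30 for Kifbp and 0.47 for Use1, and for the pairs given of the other 5 genes it lay between 0.63 (Akr1c3 with Rcan1) and 0.97 (Sirpb3 with Cars1). These are the highest of 13912 genes over 10 group means and are given as a description, without a test.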

How the data were processed

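The 6 genes and all lists were chosen with earlier results of these data known. The deposited table gives, per the file headers, an average bead intensity (the signal), a bead number and standard error, and a detection p-value for each of 60 arrays, as the authors deposited them. A second deposited table holds the authors' processed values of 12763 genes, on a log2 scale as judged from the values, and was tried in place of the signals. The submitters' processing notes name BeadStudio, lumi and limma, whose versions are not given in these sources. On the array of silica replicate 3 at 4 weeks all signals from gene line 17 on stood 2 lines away from their genes and were moved back, which raised its r with the median array from 0.232 to 0.998.

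Background was corrected by normexp with negative controls that limma infers from detection p-values (825 control types, offset 16), followed by quantile normalization and log2. Lines with a detection p-value under 0.05 on 4 or more arrays were kept, with the brightest line per gene, leaving 13918 genes. Gene names came from the RefSeq table of GRCr8, through which 5 of the 6 genes were matched by gene identifier and 1 kept its symbol. Tests used limma 3.58.1 in R 4.3.3, with a mean per group, 60 arrays and 50 residual degrees of freedom, and Benjamini-Hochberg adjustment over all 13918 genes. Correlations used python 3.11.15 with numpy 2.4.6 and pandas 2.3.3, and figures matplotlib 3.10.9. The fit was tested on simulated data. Named genes are the 6, up to 6 called genes with the smallest adjusted p per pathway list, set partners, and the 5 genes most like Tac1 and 2 most like each other gene, and 2 genes that this rule names are not reported here. Shared replicate numbers did not pair the rats: same-numbered pairs had a median correlation of deviations of -0.01, with 5 of 20 over 0.1. Alternatives were other background corrections, scalings, filters, weights, blocks and thresholds, and leaving out each rat and each time.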

Additional observations from a re-analysis of the deposited data

Results flagged for a closer look

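Of 60 combinations of gene and group checked for a rat far from the rest, 1 stood out: silica replicate 1 at 16 weeks had a Tac1 level of 5.87, with a gap to the next rat of 0.532 of the range of its group. Chance alone gives such a gap in about 1 in 20 groups. That rat's raw Tac1 signal was 94.8, still below every air rat of that week.

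The silica-minus-air difference changed among the 5 times in 2 of the named partner genes by limma's F-test over all genes. These were Akr1c14 (adjusted p = 0.0146), at -0.22, -0.04, -0.07, -0.36 and -0.50 by week, and Slc9a5 (adjusted p = 0.0463), at -0.03, -0.06, 0.16, 0.37 and 0.29.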

How the results depend on the processing

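Over 20 settings beside the main one, 2206 values of 154 results were recomputed, and 2012 of them were classed as unchanged. The rule for this class differed by kind of result. Differences, slopes and relations between rats had to keep direction and side of the threshold, or move by less than the spread between rats. Counts of called genes, and r over group means, could shift somewhat and still be classed as unchanged. The 8 week count ran from 2 to 4, against 3 in the main setting, with all 15 alternatives classed as unchanged. Tac1, Tesc, Akr1c3, Slc51a and Sirpb3 kept a mean difference below 0 in all 19 alternatives run for it. The call of 5 genes in the mean held without each of the 60 rats, where 20.6% of all genes were called lower in the main setting. The genes were picked on this difference, so nothing is read from its persistence. For each change below the cause was not tested. After median scaling the genes called lower numbered 0 at 1 week and 1 at 4 weeks, the silica slopes called 1, the F-tests called 1 in silica and 0 in air rats, the list genes called 2 (tachykinin), 4 (prostaglandin), 1 (bile acid), 0 (calcineurin) and 3 (SIRP), the gene pairs called 10 and the marker relations called 33. It cost 18 of 27 called partner genes their call, and it turned the sign of Tac1 with club markers (r = 0.16), Tesc with type II markers (0.73), the silica slopes of Tesc (0.0036) and Fam180a (0.0038) and the difference of Ptgs2 (0.0050). The 4 week count was 3 with cyclic loess, no detection filter, array weights or each time fitted alone, and 2 with the replicate block, with an adjusted p under 0.01 or with the mesothelial covariate. The calcineurin list had 5 called genes with cyclic loess and 4 with the replicate block or the stricter p. The air slopes called were 2 with the replicate block, without the 1 week groups or with the column runs as a block, and 0 without the 16 week groups. The silica slopes called were 1 with the stricter p, without the 1 week groups or without the 16 week groups. The F-test in air rats called 0 with no detection filter, the stricter p, or without the 1 week or 16 week groups, and in silica rats 5 with array weights. The stricter p left 2 pairs and 12 marker relations. Signs near 0 turned as follows: the silica slopes of Tac1 (0.037), Tesc (0.062) and Fam180a (0.14) without the 1 week groups, of Tesc (0.0050) without the 8 week groups, and of Tesc (0.0059), Fam180a (0.084) and Sirpb3 (0.00083) with the mesothelial covariate. Tacr1 (-0.065) and Ptgs2 (0.049) turned with the replicate block, and Tacr1 (-0.043) and Ptgs2 (0.081) with the mesothelial covariate. The r of Tac1 with Akr1c3 turned to -0.013 with no background correction, -0.012 with the larger offset, -0.014 in the authors' values and -0.015 with the replicate block. Leaving out single rats put the 4 week count between 2 and 5, the air F-test count between 0 and 1, that r between -0.028 and 0.082, and the silica slopes of Tesc between -0.015 and 0.0055 and of Fam180a between -0.024 and 0.016. Other call changes under the replicate block were those of gene pairs: Tesc with Slc51a (r = 0.34) and with Sirpb3 (r = 0.42) became called. Dim signals limit what can be read from Tac1, Akr1c3 and Sirpb3. Without background correction the mean difference over times was smaller in size for every gene of the set, dim or not. It was -0.67 for Tac1 (main setting -0.96), -0.54 for Akr1c3 (-0.68) and -0.39 for Sirpb3 (-0.56). For the genes detected on all arrays it was -0.74 for Tesc (-0.84), -0.36 for Slc51a (-0.49) and -0.13 for Fam180a (-0.18). The part of dimness in these changes was not tested.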
